A study of Mus musculus with 6 samples.

Results

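The proteasome genes of mouse haematopoietic stem and progenitor cells were compared between mice homozygous for an induced deletion of Setd1b, an H3K4 methyltransferase, and heterozygous controls. Members were chosen by name as the protein-coding genes whose symbol begins with Psm, one of the letters a to g and a digit, and 50 of the 45706 genes in the count table matched. Of these, 49 encode a proteasome subunit, regulator or assembly chaperone, and Psmc3ip, a meiotic recombination factor named after a subunit, was set apart. LSK cells, the lineage-negative bone marrow fraction with Sca-1 and c-Kit that holds the stem and multipotent progenitor cells, had been sorted from 6 male C57BL/6 mice, described as littermates without saying which of them shared a litter. All of these mice carried 1 copy of Rosa26-Cre-ERT2 (RC), a tamoxifen-activated Cre recombinase expressed in nearly every tissue, and all received 4.5 mg of tamoxifen per day by gavage and were killed 3 days after the last dose. The 3 control mice (Ctrl, labelled Setd1b HET, FD/+; RC/+) were AI03, AI54 and AI56 and were 16 weeks old, and the 3 knockout mice (cKO, labelled Setd1b HOM, FD/FD; RC/+) were AI02 and AI55, at 16 weeks, and AH74, at 17 weeks. FD is the allele in which loxP sites flank exon 5, so the controls also lost 1 copy of Setd1b. The Cre acts in the bone marrow niche as well as in the LSK cells.

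The 26S proteasome degrades ubiquitylated proteins. Its barrel, the 20S core, is built of outer rings of alpha subunits (Psma genes) and inner rings of beta subunits (Psmb genes), of which Psmb5, Psmb6 and Psmb7 carry the cutting sites. The 19S cap on the ends of the barrel consists of a base with a ring of ATPases (Psmc genes) that unfolds substrates and a lid (Psmd genes) that removes ubiquitin. Blood cells also make immunoproteasomes, in which Psmb8, Psmb9 and Psmb10 replace Psmb5, Psmb6 and Psmb7 and the Psme1 and Psme2 activator may replace the cap. Both the immune subunits and this activator are known as interferon-gamma targets, whereas the transcription factor NRF1 (Nfe2l1) is known to raise the constitutive genes together when proteasome activity falls.

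The promoters of the cutting subunits are shown because each immune subunit and its constitutive counterpart fill the same place in the beta ring from separately controlled genes. The 150 bases before the RefSeq start site (GRCm38.p6) are written 5′ to 3′ on the strand of the gene, and capitals mark TGACNNNGC, the core of the antioxidant response element used by NRF1 and NRF2, in Psmb5 and Psmb6, and ATTGG, the NF-Y box CCAAT on the other strand, in Psmb9. The Psmb8 and Psmb9 stretches lie inside the longer GENCODE models of these genes. The table used had no window for Psmb7, nor for Psma8, Psmb1, Psmb2, Psmc3, Psmd3, Psmd7 and Psmg2.
Psmb5, chr14:54617996-54618145, minus strand: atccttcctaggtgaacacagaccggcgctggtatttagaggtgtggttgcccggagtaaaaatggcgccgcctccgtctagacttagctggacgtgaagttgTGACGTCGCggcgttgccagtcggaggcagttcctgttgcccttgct
Psmb8, chr17:34198045-34198194, plus strand: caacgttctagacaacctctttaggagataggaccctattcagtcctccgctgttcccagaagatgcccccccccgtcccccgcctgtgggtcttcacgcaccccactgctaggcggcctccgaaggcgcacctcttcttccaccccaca
Psmb6, chr11:70525207-70525356, plus strand: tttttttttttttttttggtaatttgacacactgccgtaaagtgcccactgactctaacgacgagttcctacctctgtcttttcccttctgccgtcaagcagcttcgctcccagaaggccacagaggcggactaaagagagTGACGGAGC
Psmb9, chr17:34187331-34187480, minus strand: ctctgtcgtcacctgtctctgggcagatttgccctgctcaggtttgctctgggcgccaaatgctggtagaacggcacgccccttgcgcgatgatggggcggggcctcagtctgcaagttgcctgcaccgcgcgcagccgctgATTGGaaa
Psmb10, chr8:105938393-105938542, minus strand: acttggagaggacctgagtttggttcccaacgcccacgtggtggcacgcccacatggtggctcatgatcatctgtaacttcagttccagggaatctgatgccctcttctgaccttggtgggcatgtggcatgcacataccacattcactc

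Windows were found for 41 of the 49 genes, 44 windows in all because some genes had more than 1, and motifs were searched on both strands in the 250 bases before each start. The median member window held 14 CpG dinucleotides, against 6 over all 32851 mouse windows, and the 6 windows of the immunoproteasome genes had a median of 10. TGACNNNGC occurred in 5 of the 44 member windows (Psmb5, Psmb6, Psmc6, Psmd9 and Psmd12), or 11.4%, and in 10.2% of all windows. CCAAT occurred in 31.8% of the member windows and 33.8% of all windows. The core of the interferon-stimulated response element, TTTC and again TTTC on 1 strand with any 2 bases between, occurred in 3 member windows (Psmb3, Psmd4 and Psmd9; 6.82%), in none of the 6 immunoproteasome windows and in 2.98% of all windows. These are matches of letters and not sites of binding.

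The deposited table held raw counts per gene, with 13003573 to 21277519 counts per library. Counts are given as CPM, scaled to library size with the TMM factors of edgeR, and values are always listed for AI03, AI54 and AI56 (Ctrl) and then for AI02, AI55 and AH74 (cKO). In total the 49 proteasome genes took 4358, 4603 and 4682 CPM in the Ctrl libraries and 4261, 4175 and 3996 CPM in the cKO libraries, so that all cKO libraries lay below all Ctrl libraries after this scaling. As shares of the raw counts, at 0.438%, 0.454% and 0.442% in Ctrl and 0.438%, 0.430% and 0.400% in cKO, the groups overlapped, with AI02 slightly above AI03. In bulk RNA from sorted cells, fewer cells of a type and less RNA per cell cannot be told apart.

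Some properties of the libraries bear on every comparison. Setd1b itself had 221, 194 and 223 CPM in the Ctrl and 272, 288 and 314 CPM in the cKO libraries, a higher level in those labelled cKO (log2 fold change 0.46, SE 0.0734, edgeR adjusted p = 0.0015). These counts cover the whole gene and do not single out the deleted exon 5, so they do not check the genotypes, and cKO and Ctrl below are the labels of the libraries. Each column of the table also carries a library number, whose meaning is not given in the sources used here, and the numbers fall into 2 runs: AI02, AI55 and AI03 have the lower ones and AH74, AI54 and AI56 the higher ones. Differences are therefore also given within each group, with no test there, since 1 genotype then has 1 library. The LSK markers Kit and Cd34 were abundant in every library (at least 395 CPM), and Ly6a, which encodes Sca-1, had 40.6, 56.3 and 36.5 CPM in Ctrl and 39.3, 35.8 and 39.3 CPM in cKO. Cell type markers are counted below as lower or higher only past an edgeR adjusted p of 0.05. Of all genes tested, 3.79% passed as lower and 3.88% as higher. Granulocyte and monocyte markers differed with the genotype: 8 of the 9 tested were lower in cKO, all but Lyz2. The 10 listed summed to 2994 to 3591 CPM in Ctrl and 550 to 875 CPM in cKO. Mpo alone made up 2299 to 2933 CPM of these sums in Ctrl and 265 to 460 CPM in cKO. Of the erythroid markers 4 of 6 tested were lower, with sums of 259 to 271 CPM and 121 to 142 CPM, while Hba-a1, Hba-a2 and Slc4a1 were under 1 CPM in every library. Tfrc was the largest part of the erythroid sums, at 118, 144 and 114 CPM in Ctrl and 83.6, 99.7 and 95.7 CPM in cKO. Of 5 B cell markers tested 4 were lower (sums of 250.1 to 605 CPM and 90.1 to 165 CPM), of 4 T and NK cell markers 1, Nkg7 (63.0 to 77.2 CPM and 50.4 to 55.2 CPM), and of 9 dendritic cell and macrophage markers 2 (58.7 to 71.3 CPM and 45.9 to 73.9 CPM), with Cd79a, Ms4a1, Cd3d, Cd3e, Cd3g and Xcr1 under 1 CPM everywhere. The 10 LSK genes summed to 1513 to 1661 CPM and 1511 to 1593 CPM, and Procr and Mecom among them were higher. The part of these cells in the proteasome values was not tested.

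Proteasome genes were expressed over a wide range of levels, compared here per exon length as TPM, a library share of counts per exon base (mean of the 6 libraries). The highest was Psme1 of the activator, at 244 TPM, followed by the core subunit Psmb1 at 149.6 TPM and the immune subunit Psmb8 at 133 TPM. Psmb8 was thus above its constitutive counterpart Psmb5, at 34.5 TPM, whereas Psmb9, at 22.1 TPM, was below Psmb6, at 55.5 TPM, and Psmb10 and Psmb7 were near each other at 64.1 and 55.6 TPM. Among the alpha subunits the levels ran from 117 TPM for Psma2 down to 3.69 TPM for Psma8, the testis-enriched form of Psma7. The lowest constitutive beta subunit was Psmb3, at 14.6 TPM. The cap ran from 109 TPM for Psmd7 down to 16.1 TPM for Psmd11, and its chaperones from 13.9 TPM for Psmd10 to 3.84 TPM for Psmd9. Psmb11, the form of Psmb5 used by the thymic cortex, had 0.067 CPM in AI02 and 0 in the other 5 libraries, and it did not pass the filter on low counts. Subunits that stand in the complex in equal numbers differed several-fold in counts per length. Only uniquely aligned reads entered the table. Of the 75-base stretches of the longest coding transcript, 60.2% in Psme2b and 51.7% in Psme2 also occur in annotated transcripts of genes at other loci. The share was 39.8% in Psma5, 35.8% in Psmb5, 33.1% in Psmb3 and 21.3% in Psma3. It was 15.1% in Psmd2, 12.9% in Psma4, 12.6% in Psmd11 and 8.17% in Psmc1. Copies outside annotated transcripts were not searched. The levels of these genes are uncertain for that reason, those of the first 6 the most, and the Psmb8 to Psmb5 comparison with them. Exons on the same strand overlap between Psmd1 and Gm21972, Psmg3 and Gm26938, Psmb5 and Mir686, and Psme2b and 9930111J21Rik1.

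**Figure D1:**
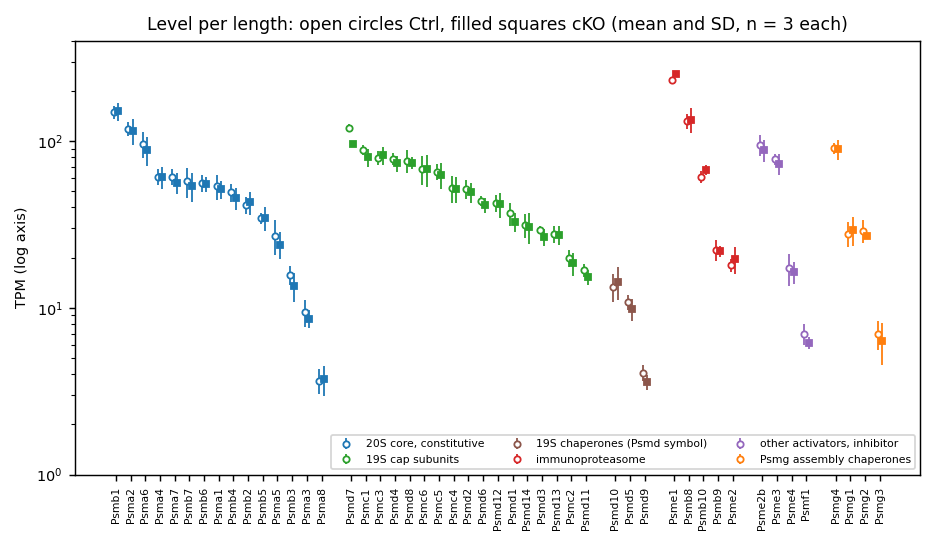
Level of the 48 tested proteasome genes in TPM on a log axis, sorted within each class, as mean and SD of 3 Ctrl (open circles) and 3 cKO libraries (filled squares). Psme1 was the highest at 244 TPM, and Psma8 and Psmd9 the lowest at 3.69 and 3.84 TPM. TPM is used to compare genes with each other, and the comparison of genotypes rests on the TMM-scaled counts.

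The comparison of cKO with Ctrl asked how the proteasome genes differed 3 days after the last dose of tamoxifen. Fitted log2 fold changes a little below 0 ran through the core and cap members, with Psmd7 of the cap alone past the threshold. The immunoproteasome genes lay near 0. The fitted log2 fold change was below 0 for 44 of the 48 members tested, against 49.9% of the 15184 genes tested, and the 4 exceptions were Psmb10, Psme1, Psme2 and the chaperone Psmd10. The median over the members was -0.15, with a range from -0.41 to 0.041, and the median over all genes was 0.00023. Only 1 member, the lid subunit Psmd7, passed an adjusted p of 0.05 in the edgeR quasi-likelihood test, as did 3.79% of all genes in this direction, and 0 members were higher, against 3.88%. A total of 19 members had an unadjusted p under 0.05, all of them lower in cKO, while 11.5% of all genes were lower at that level. In 19 of the 48 members every cKO library lay below every Ctrl library, which held for 13.4% of all genes, and in 0 members was every cKO library above every Ctrl library, which held for 14% of all genes. DESeq2 called 5 members lower (Psmd7, Psmc1, Psmd1, Psma7 and Psmd3) and 0 higher, with 4.55% of all genes called lower. No test was made of the list as a whole.

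**Figure D2:**
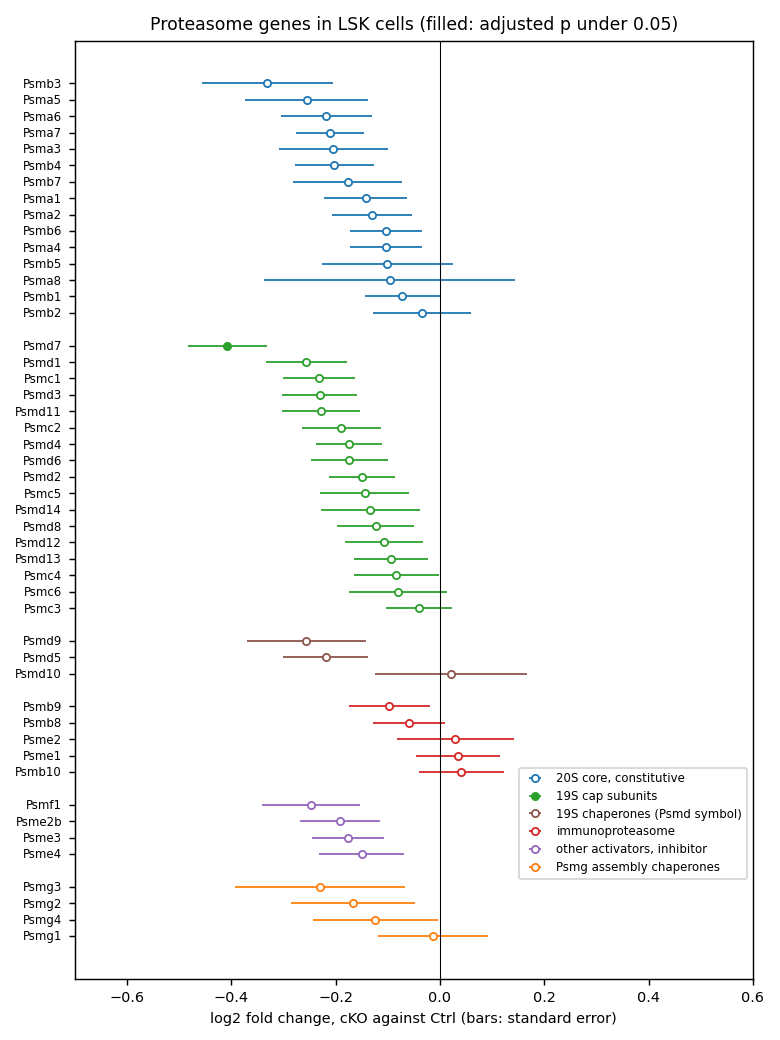
Fitted log2 fold change of cKO against Ctrl (horizontal axis) with its standard error for the 48 tested members by class. Filled symbols mark an edgeR adjusted p under 0.05, reached by Psmd7 alone at -0.41, and the 5 immunoproteasome genes span -0.097 to 0.041.

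The 1 decrease that passed the threshold was in the 19S cap. All 17 cap subunits with a Psmc or Psmd symbol had a log2 fold change below 0, with a median of -0.15. Of these, 9 had an unadjusted p under 0.05 (11.5% of all genes were lower at that level). In 11 every cKO library lay below every Ctrl library (13.4% of all genes). Sem1 and Adrm1, cap subunits under other names, are given further below. Psmd7 (ENSMUSG00000039067, chr8:107580381-107588482, minus strand, mm10) encodes Rpn8, the lid protein that pairs with the deubiquitinase Psmd14. It had 149, 153 and 176 CPM in the Ctrl and 114, 117 and 129 CPM in the cKO libraries. The highest cKO library, AH74, stayed below the lowest Ctrl library, AI03. The decrease was 24.6% (log2 fold change -0.41, SE 0.0763, 95% interval -0.57 to -0.24, edgeR adjusted p = 0.0040). Its size was much the same within both groups of library numbers, at -0.37 in the lower-numbered libraries and -0.34 in the higher-numbered ones, and it passed the threshold in all 14 alternative fits, with adjusted p from 3.5e-06 to 0.032. Its partner Psmd14 had 67.8, 79.1 and 70.6 CPM in Ctrl and 74.2, 67.0 and 57.2 CPM in cKO, overlapping groups with a log2 fold change of -0.13 (edgeR adjusted p = 0.45).

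Other lid subunits came close to the threshold without passing it. Psmd3 (Rpn3) had 112, 118 and 131 CPM in Ctrl and 105, 102 and 100.4 CPM in cKO. Psmd11 (Rpn6), a scaffold that holds the lid to the core, had 81.4, 91.0 and 93.5 CPM and 74.6, 78.4 and 74.2 CPM. Neither pair of groups overlapped, and the log2 fold changes were -0.23 (SE 0.0720, edgeR adjusted p = 0.065) and -0.23 (SE 0.0742, edgeR adjusted p = 0.076). Without AI03, the Ctrl library with the lowest total count, Psmd3 and Psmd11 passed, at adjusted p = 0.037 and 0.036. Of the 14 alternative fits Psmd3 passed in 4 and Psmd11 in 2, and their adjusted p reached 0.23 and 0.22. The remaining lid genes, Psmd6, Psmd8, Psmd12, Psmd13 and Psmd14, ranged from -0.17 to -0.093.

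In the base, the ATPase Psmc1 (Rpt2), whose tail takes part in opening the gate of the core, had 106, 107 and 118 CPM in Ctrl and 94.5, 96.4 and 90.7 CPM in cKO. All cKO values were below all Ctrl values, and the log2 fold change was -0.23 (SE 0.0694, edgeR adjusted p = 0.055; DESeq2 adjusted p = 0.038). Psmc2 (Rpt1) had 78.1, 84.7 and 82.9 CPM and 74.3, 75.2 and 66.0 CPM, also without overlap, and a log2 fold change of -0.19 (adjusted p = 0.15). In Psmc5 (Rpt6), at 70.9, 77.6 and 76.7 CPM and 76.7, 62.4 and 64.9 CPM, 1 cKO library reached the level of the Ctrl libraries, and the log2 fold change was -0.14 (adjusted p = 0.34). Psmc3, Psmc4 and Psmc6 had log2 fold changes of -0.041, -0.084 and -0.081 with overlapping groups. So the ring of 6 ATPases, which assembles in equal numbers, covered -0.23 to -0.041, and these differences between its members were not tested.

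The base proteins that are no ATPases bind ubiquitin chains and hold the cap together. In the 3 with a Psmd symbol every cKO library lay below every Ctrl library (13.4% of all genes), which did not hold for Adrm1, given further below. Psmd1 (Rpn2), the largest cap subunit, had 194, 243 and 222 CPM in Ctrl and 188, 189 and 175 CPM in cKO. AI03 was the lowest of its controls, so that the log2 difference was -0.045 in the lower-numbered libraries and -0.41 in the higher-numbered ones. The log2 fold change over all libraries was -0.26 (SE 0.0775, edgeR adjusted p = 0.057), and without AI03 it was -0.34 with adjusted p = 0.012. Psmd1 passed in 5 of 14 alternative fits, with adjusted p from 0.0077 to 0.21. The ubiquitin receptor Psmd4 (Rpn10) had 177, 174 and 191 CPM and 160.3, 164 and 156 CPM, with a log2 fold change of -0.17 (adjusted p = 0.11). For Psmd2 (Rpn1), which also docks shuttle proteins, 167, 177 and 169 CPM and 163, 152 and 148 CPM gave -0.15 (adjusted p = 0.18).

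The chaperones that assemble the base but carry Psmd symbols were at low levels. Psmd5 had 65.0, 60.6 and 66.7 CPM in Ctrl and 59.0, 54.8 and 51.3 CPM in cKO (log2 fold change -0.22, adjusted p = 0.12). Psmd9 had 24.3, 23.7 and 24.9 CPM and 17.9, 21.8 and 21.3 CPM (-0.26, adjusted p = 0.19). In both, every cKO library was below every Ctrl library, which held for 13.4% of all genes. Psmd10 (gankyrin), which is also known as an oncoprotein, had 17.8, 15.2 and 15.2 CPM and 19.2, 13.5 and 16.1 CPM with a log2 fold change of 0.022 and a 95% interval from -0.29 to 0.33, wide enough to hold the values of the other two.

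In the constitutive core all 15 tested subunits had a log2 fold change below 0, with a median of -0.14, but none passed the adjusted threshold in edgeR, 1 (Psma7) passed in DESeq2, 5 had an unadjusted p under 0.05 and in 3 the groups did not overlap. Of all genes 11.5% were lower at that p and 13.4% had all cKO below all Ctrl libraries, and the 3 of 15 core genes lie near the latter share. Psma7, an alpha subunit, had 152, 154 and 157 CPM in Ctrl and 134, 141 and 125 CPM in cKO, tight and separate groups with a log2 fold change of -0.21 (SE 0.0653, edgeR adjusted p = 0.064; DESeq2 adjusted p = 0.038). The other groups without overlap were those of Psmb4, at 74.9, 82.3 and 79.1 CPM and 71.7, 70.4 and 63.4 CPM (log2 fold change -0.20, adjusted p = 0.12), and Psma3. The largest value in the core was that of Psmb3, at 24.9, 32.0 and 32.8 CPM and 27.1, 23.0 and 21.5 CPM, a log2 fold change of -0.33 (SE 0.126, adjusted p = 0.13). AI03 was as low as the cKO libraries in that gene, so the difference was 0.00029 in the lower-numbered libraries and -0.59 in the higher-numbered ones, and without AI03 it was -0.44 with adjusted p = 0.040. Psmb3 passed in only 1 of 14 alternative fits, and its adjusted p reached 0.34.

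In other core subunits single libraries made the groups overlap. Psma6 had 95.0, 105 and 91.8 CPM and 94.5, 81.3 and 75.5 CPM (log2 fold change -0.22, adjusted p = 0.15). Psma5 had 30.3, 31.8 and 25.2 CPM and 26.3, 25.2 and 21.7 CPM (log2 fold change -0.26, adjusted p = 0.21). In Psma6 the cKO library AI02 reached into the Ctrl range, and in Psma5 the Ctrl library AI56 was as low as AI55. Psma2, the most abundant alpha subunit per length, had 91.2, 90.2 and 95.1 CPM and 91.4, 85.5 and 75.6 CPM (log2 fold change -0.13). Psmb1, the most abundant beta subunit, had 116, 129.7 and 135 CPM and 125, 121 and 116 CPM (log2 fold change -0.072). Psma8 rested on 3.75, 5.43 and 6.33 CPM and 5.36, 5.02 and 4.21 CPM and had an SE of 0.241, the widest of the members.

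The 3 constitutive cutting subunits all overlapped between the genotypes. Psmb5, the chymotrypsin-like subunit and the main target of bortezomib, had 20.9, 25.2 and 28.6 CPM in Ctrl and 25.4, 22.5 and 21.9 CPM in cKO (log2 fold change -0.10, adjusted p = 0.69). Psmb6, the caspase-like subunit, had 87.6, 81.8 and 88.4 CPM and 78.8, 82.1 and 78.8 CPM (-0.10, adjusted p = 0.41). Psmb7, the trypsin-like subunit, had 53.6, 64.7 and 52.1 CPM and 56.4, 50.4 and 44.3 CPM (-0.18, adjusted p = 0.34). Of the 3, Psmb6 was the steadiest, with -0.12 and -0.11 within the lower and higher library numbers, against 0.19 and -0.29 for Psmb5 and -0.0067 and -0.39 for Psmb7.

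The immunoproteasome genes had a median log2 fold change of 0.029, and none of the 5 passed in edgeR or DESeq2, had an unadjusted p under 0.05 or had groups that did not overlap. Psmb8 had 282, 301 and 305 CPM in Ctrl and 299.9, 295 and 258 CPM in cKO, all within the Ctrl range except AH74 below it (log2 fold change -0.059, 95% interval -0.21 to 0.088, edgeR adjusted p = 0.67). Psmb9 had 70.2, 63.4 and 66.5 CPM and 58.8, 64.3 and 63.8 CPM, the lowest being AI02 (-0.097, -0.26 to 0.068, adjusted p = 0.50). Psmb10 had 57.5, 65.8 and 69.2 CPM and 65.0, 65.2 and 68.1 CPM, with the cKO values inside the Ctrl range (0.041, -0.13 to 0.22, adjusted p = 0.82). These are the catalytic subunits, and the groups overlapped for each. For the activator, Psme1 had 389, 412 and 482 CPM and 416, 422 and 476 CPM (0.034, -0.14 to 0.21, adjusted p = 0.85). Its partner Psme2 had 23.9, 26.8 and 27.6 CPM and 29.8, 26.2 and 24.1 CPM (0.029, -0.21 to 0.27, adjusted p = 0.91). Each interval covers 0 and, but for Psme1 and Psmb10, also the core median of -0.14. Psme1 and Psme2 lie 5911 bases apart on chromosome 14, and Psmb8 and Psmb9 lie beside Tap1 and Tap2, the peptide transporter, on chromosome 17. The models of Psmb9 and Tap1 overlap head to head by 212 bases.

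**Figure D3:**
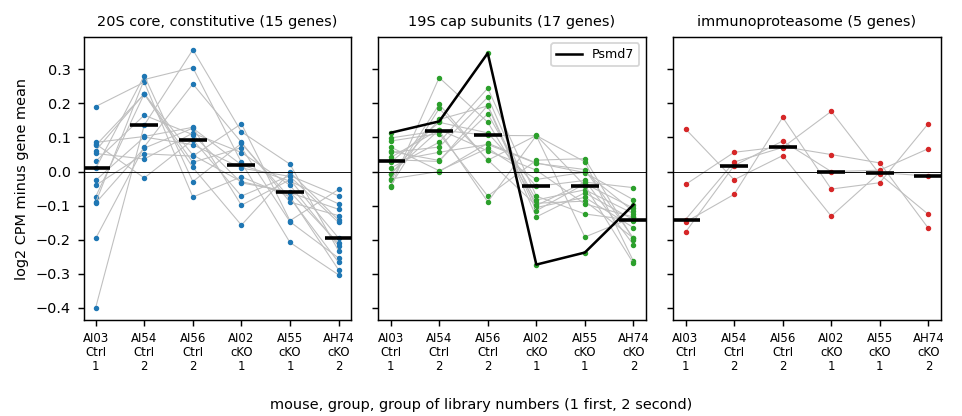
Deviation of log2 CPM from the mean of each gene over the 6 libraries (vertical axis) for the constitutive core, the cap and the immunoproteasome, with 1 point per gene and library and a black bar at the median. In the core, AI03 lay near the cKO libraries and AH74 was the lowest library for 10 of 15 genes, in the cap all cKO medians were below all Ctrl medians, and in the immunoproteasome the lowest median was that of AI03.

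The ratio of each immune to its constitutive cutting subunit is free of scaling between libraries. The Psmb8 to Psmb5 ratio in TPM was 4.30, 3.81 and 3.39 in Ctrl and 3.76, 4.17 and 3.75 in cKO, or 3.83 ± 0.454 and 3.90 ± 0.240 (SD, n = 3; difference of mean log2 ratios 0.028, two-sided exact permutation test p = 1). The Psmb9 to Psmb6 ratio was 0.410, 0.396 and 0.385 in Ctrl and 0.382, 0.400 and 0.414 in cKO, with means of 0.397 ± 0.0125 and 0.399 ± 0.0162 (SD, n = 3; difference 0.0053, exact p = 0.8). The Psmb10 to Psmb7 ratio was 1.03, 0.972 and 1.27 in Ctrl and 1.10, 1.24 and 1.47 in cKO, or 1.09 ± 0.158 and 1.27 ± 0.187 (SD, n = 3; difference 0.22, exact p = 0.3). That last difference was 0.19 and 0.41 within the lower and higher library numbers, 0.11 without AH74 and 0.34 without AI56. The groups overlapped in all 3 ratios, and the Benjamini-Hochberg values over the 3 tests were 1, 1 and 0.9. With 3 mice against 3 such a test cannot give a p below 0.1. The size of the first ratio is uncertain because reads of Psmb5 that match other loci were not counted.

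**Figure D4:**
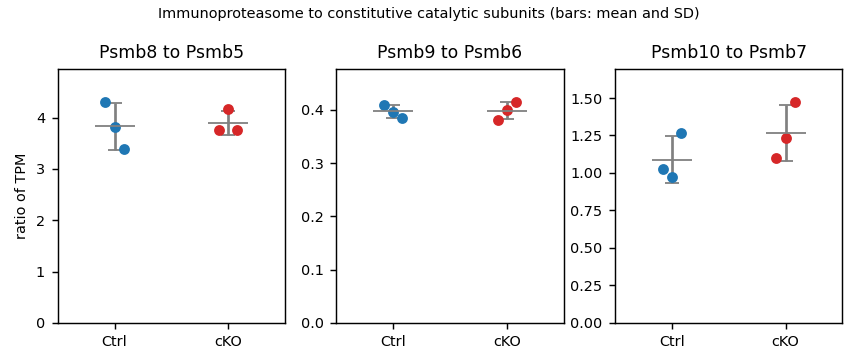
Ratio of the TPM of each immune cutting subunit to that of its constitutive counterpart in 3 Ctrl (blue) and 3 cKO (red) libraries, with mean and SD. The groups overlapped in all 3 ratios, and the means were 3.83 and 3.90, 0.397 and 0.399, and 1.09 and 1.27.

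The activators outside the immunoproteasome and the inhibitor all had log2 fold changes below 0, and none of the 4 passed the adjusted threshold in edgeR or DESeq2, although 3 had an unadjusted p under 0.05 (11.5% of all genes). Psme3, the nuclear PA28-gamma activator, had 183, 183 and 200.3 CPM in Ctrl and 169.7, 176 and 155 CPM in cKO, without overlap (log2 fold change -0.18, adjusted p = 0.14). Psmf1 (PI31), known as an inhibitor of the core in vitro, had 37.6, 36.3 and 36.3 CPM and 32.0, 28.4 and 32.5 CPM, again without overlap (-0.25, adjusted p = 0.13). Psme4 (PA200) had 129, 119.5 and 104 CPM and 113, 106 and 99.5 CPM with overlap (-0.15, adjusted p = 0.30). Psme2b, a near copy of Psme2, had 66.1, 65.6 and 64.0 CPM and 60.4, 57.8 and 53.1 CPM (-0.19, adjusted p = 0.15), and reads from Psme2 and Psme2b can be separated only where their sequences differ.

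The Psmg chaperones, which build the alpha ring as the pairs Psmg1 with Psmg2 and Psmg3 with Psmg4, overlapped between genotypes throughout and had a median log2 fold change of -0.15, and none passed in edgeR or DESeq2 or had an unadjusted p under 0.05. Psmg2 had 24.6, 26.4 and 24.1 CPM in Ctrl and 20.6, 20.5 and 25.9 CPM in cKO (-0.17, adjusted p = 0.44), with AH74 in the Ctrl range. Psmg3 had 14.5, 18.9 and 15.9 CPM and 17.6, 11.4 and 13.3 CPM (-0.23, adjusted p = 0.44). Its partner Psmg4, the most abundant per length at 89.9 TPM, had 34.7, 39.9 and 50.5 CPM and 41.4, 36.0 and 37.6 CPM (-0.12, adjusted p = 0.59). Psmg1 gave -0.013 (95% interval -0.24 to 0.21). The median of the 4 depended on the processing, at -0.089 without AI55, -0.083 with the group of library numbers as a covariate and -0.067 with the length trend removed. The unrelated Psmc3ip had 34.9, 30.9 and 31.6 CPM and 26.9, 25.2 and 27.1 CPM, without overlap, and a log2 fold change of -0.30 (SE 0.0988, adjusted p = 0.084).

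The medians lay nearer 0 in the lower than in the higher library numbers. In the lower-numbered libraries the median difference of the 48 members was -0.058 and 33 were below 0, and in the higher-numbered libraries it was -0.25 and 44 were below 0, while over all genes the medians were -0.00093 and 0.0054. The core gave -0.0067 and -0.29, the cap -0.062 and -0.26 and the immunoproteasome 0.11 and -0.025. AH74, the 1 cKO library of the higher numbers, was the lowest library for 29 of the 48 members, whereas it was the lowest for 19.8% of all genes. The edgeR interaction term, which compares the groups of library numbers, rests on 2 residual degrees of freedom and on 1 genotype having a single library in each group. It called 1 of all 15184 genes and 0 members at an adjusted p of 0.05, so that the 0 is not informative, and 5 members (Psmd1, Psmd14, Psmb8, Psmb3 and Psmb1) had an unadjusted p under 0.05, as did 6.20% of all genes. Leaving out AH74 gave a member median of -0.12 and 42 members below 0, and leaving out AI03 gave -0.19 and 47. The share of counts in the rRNA-like genes Gm42418 and Gm26917 was 4.45% to 5.30% in the lower-numbered and 7.52% to 9.04% in the higher-numbered libraries, and its part in these differences was not tested.

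**Figure D5:**
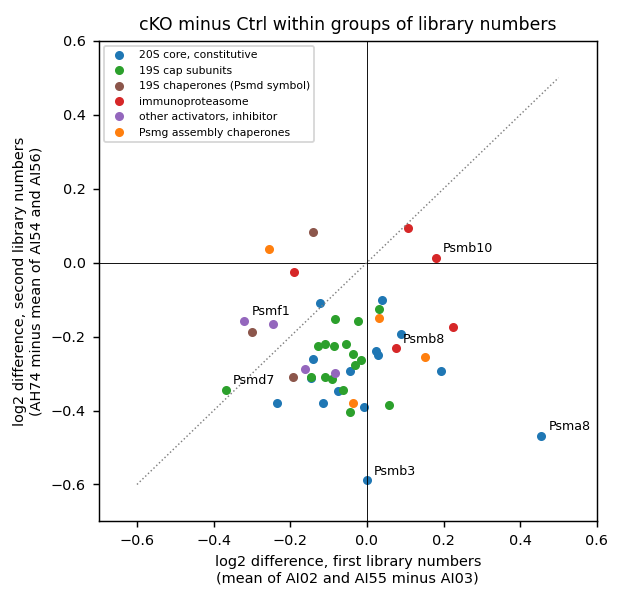
Log2 difference of cKO from Ctrl within the lower library numbers (horizontal axis, called first) and within the higher ones (vertical axis, called second) for the 48 tested members, coloured by class; the dotted line marks equal values. Most members lay below the line, Psmd7 lay on it at -0.37 and -0.34, and Psmb3 was at 0.00029 and -0.59.

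Among 9 tested proteasome genes that carry other names, 0 passed the threshold in edgeR or DESeq2, and the median log2 fold change was -0.096. Only 1 of the 9 had an unadjusted p under 0.05, near the 11.5% of all genes that were lower at that level. This was Txnl1, a thioredoxin bound to the cap, at 98.2, 105 and 95.4 CPM in Ctrl and 94.9, 88.7 and 80.3 CPM in cKO (-0.18, adjusted p = 0.18). Pomp, the maturation factor of the beta ring, had 93.2, 90.4 and 88.3 CPM and 88.6, 88.9 and 73.1 CPM (log2 fold change -0.12). Akirin2, which brings proteasomes into the nucleus, had 43.4, 42.7 and 48.5 CPM and 52.6, 46.9 and 48.5 CPM (log2 fold change 0.14), the largest value above 0 in this list. The list also holds cap subunits. Sem1, of the lid, had 161, 164 and 146 CPM and 170, 172 and 136 CPM (0.023, edgeR adjusted p = 0.91). Adrm1, of the base, had 25.5, 25.2 and 30.0 CPM and 25.3, 27.1 and 25.0 CPM (-0.060, edgeR adjusted p = 0.79). The groups overlapped in both.

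A list of 19 genes around NRF1 and NRF2 held these factors, genes that act on or with them, and antioxidant genes. Of the 19, 2 passed the threshold, both lower (3.79% of all genes were called lower), and the median log2 fold change was -0.072. The 2 that passed, Hmox1 and Gclm, were among the antioxidant genes. Hmox1, which breaks down haem, had 4.74, 3.77 and 5.82 CPM in Ctrl and 0.536, 1.84 and 1.12 CPM in cKO, a low gene with separate groups (log2 fold change -2.01, SE 0.374, adjusted p = 0.0038). Gclm, of glutathione synthesis, had 67.1, 74.1 and 80.4 CPM and 62.3, 59.1 and 58.0 CPM (-0.30, SE 0.0816, adjusted p = 0.034), and it passed in 8 of 14 alternative fits. Its adjusted p ran from 0.0097 to 0.136 over them, and it did not pass when AI02, AI54, AI55, AI56 or AH74 was left out or with the group of library numbers as a covariate. The factors themselves did not pass. Nfe2l1 (NRF1) was at 111, 91.7 and 108 CPM and 103, 101 and 101 CPM (-0.020, adjusted p = 0.91), and Nfe2l2 (NRF2) at 82.7, 86.4 and 79.5 CPM and 83.0, 77.4 and 76.2 CPM (-0.072, adjusted p = 0.61).

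The genes of interferon control and class I peptide loading share known regulators with the immunoproteasome. Of 16 tested, 4 passed, all lower, where 3.79% of all genes were called lower and 3.88% higher. The list had no common direction, with 7 of 16 below 0 and a median log2 fold change of 0.039. Calr, the chaperone calreticulin, had 2232, 2159 and 2513 CPM in Ctrl and 1662, 1464 and 1625 CPM in cKO (-0.54, adjusted p = 0.00033). Pdia3, its partner in class I folding, had 505, 478 and 486 CPM and 424, 395 and 375 CPM (-0.30, adjusted p = 0.0087, and 0.055 without AI55). Both also serve the folding of other glycoproteins in the endoplasmic reticulum. Irf8, a transcription factor of the monocyte lineage, had 112, 102 and 90.4 CPM and 67.1, 63.6 and 46.8 CPM (-0.78, adjusted p = 0.00076). The receptor chain Ifngr1 had 101, 91.0 and 103 CPM and 75.4, 73.4 and 76.9 CPM (-0.38, adjusted p = 0.0042). Irf8 was lower in cKO, as were most of the granulocyte and monocyte markers given above, and a link between them was not tested. Irf1 and Nlrc5, which regulate the immune subunits, had log2 fold changes of 0.079 and 0.042 and did not pass. Tap1, the neighbour of Psmb9, had 248, 239 and 236 CPM and 208, 219 and 207 CPM, separate groups with a log2 fold change of -0.19 (adjusted p = 0.072), beside -0.097 for Psmb9. On the other side, Irf9, a subunit of the interferon-stimulated factor ISGF3, had 93.7, 92.8 and 82.0 CPM and 102, 113 and 103 CPM (0.25, adjusted p = 0.057), and the receptor chain Ifnar1 had 75.8, 72.5 and 62.5 CPM and 84.5, 84.2 and 82.1 CPM (0.25, adjusted p = 0.069). Both had all cKO above all Ctrl libraries, which held for 14% of all genes, and each passed in 2 of 14 alternative fits.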

How the data were processed

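RNA from sorted LSK cells of 6 mice had been made into libraries with a stranded total RNA kit for small inputs and read as single 75-base reads. The authors aligned the reads to mm10 with GSNAP, kept unique alignments and deposited counts per gene from featureCounts (1.5.0) with Ensembl annotation, in a table of 45706 genes, and per the labels bcl2fastq (2.17.1.14) was used too. Symbols and classes came from GENCODE M21. The whole table was filtered (filterByExpr, 15184 genes left), TMM-scaled and tested with edgeR 4.0.16 (quasi-likelihood test, Benjamini-Hochberg over all genes, threshold 0.05), and fits were tested on simulated data; DESeq2 1.42.0 (R 4.3.3) was an alternative. TPM was computed from counts and the deposited exon lengths and CPM from TMM-scaled library sizes. Trends against length and GC content were removed with loess (span 0.3). The members and all gene lists were chosen with earlier results of these data known. Named with values in every library were members past the threshold, the 3 with the smallest p in each class, cutting subunits, Psme1, Psme2, the extremes of TPM, and list genes past the threshold. Psmd14, Pomp, Akirin2, Sem1, Adrm1, the regulators named, Tap1, Irf9 and Ifnar1 were added after their values were seen. Results of some listed genes are not reported here. All 6 columns were used.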

Additional observations from a re-analysis of the deposited data

How the results depend on the processing

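Psmd7 kept its direction and its side of the threshold in all 14 alternative fits, and no member past the threshold changed direction. The number of members lower past the threshold was 1 with edgeR and 5 with DESeq2, 4 with no filter on low counts, 7 with the length trend removed, 3 with the GC trend removed, and 1 to 5 when 1 mouse was left out, the 5 being without AI03 (Psmd7, Psmd1, Psmd3, Psmd11 and Psmb3). Over all genes, edgeR called 575 of 15184 lower and DESeq2 691 of 15182. The number was 873 of 25890 with no filter, 846 of 15184 with the length trend removed and 668 of 15184 with the GC trend removed. With 1 mouse left out it ran from 307 (without AI55) to 605 (without AI03) of 15184. Removing the length trend also turned the split over all genes from 575 lower and 589 higher to 846 and 531. The cause of these changes was not tested. The number of members below 0 stayed between 42 and 47 with 1 mouse left out.

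Within the lower and then the higher library numbers, the median log2 differences were -0.058 and -0.25 for all members, -0.0067 and -0.29 for the core, -0.080 and -0.30 for its alpha and 0.00029 and -0.29 for its beta subunits, -0.062 and -0.26 for the cap, -0.087 and -0.29 for the lid, -0.26 (higher numbers) for the ATPases, -0.087 (lower numbers) for the other base subunits, 0.11 (lower) for the immunoproteasome and -0.0019 (lower) for the Psmg chaperones. With 1 mouse left out, the beta median ranged from -0.21 (without AI03) to -0.086 and the immunoproteasome median from -0.056 (without AI02) to 0.066. Without both AI03 and AH74, added after the values had been seen, the immunoproteasome median was -0.051, the core median -0.17 and the cap median -0.16. The median of the cap chaperones was -0.29 with the length trend removed. The difference of the log2 ratio of Psmb8 to Psmb5 was -0.12 in the lower numbers, and that of Psmb9 to Psmb6 was -0.069 and 0.084 in the lower and higher numbers. With 3 mice a group and standard errors of 0.063 to 0.24 for the members, most shifts near the member median could not be separated from 0 gene by gene. No paired analysis was possible because the labels give no replicate numbers and, although the mice are described as littermates, do not say which of them shared a litter.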
